A study of Homo sapiens with 6 samples.

Results

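The brush border of the kidney proximal tubule is a carpet of apical microvilli that carries peptidases, endocytic receptors and transporters, and 10 genes of this surface were followed in 786-O cells, a line of clear cell renal cell carcinoma, a tumour held to arise from that tubule. Members were found by symbol, from a list drawn up when earlier results of these data were known: the peptidases ANPEP, DPP4, ENPEP and GGT1, the endocytic receptors LRP2 and CUBN, the solute transporters SLC5A2, SLC34A1 and SLC17A1, and the water channel AQP1. All 10 symbols were found among the 61860 gene rows of the deposited tables. RNA depleted of ribosomal RNA was sequenced from 3 libraries of 786-O cells stably expressing a control short hairpin RNA (shRNA) and 3 libraries of 786-O cells stably expressing an shRNA against METTL3, the enzyme that writes N6-methyladenosine on mRNA. The line lacks functional VHL, which all 6 libraries share. The sources used here say neither whether each shRNA population was a pool or a clone nor whether replicate libraries were grown separately, so the spread behind the p-values may be technical. Of the 10 genes, 7 had enough counts to be tested.

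In the tubule the membrane peptidases cut filtered peptides into amino acids and short fragments at the cell surface, and the receptors megalin (LRP2) and cubilin (CUBN) take up filtered proteins and vitamin carriers. The transporters reclaim glucose (SLC5A2, also called SGLT2) and phosphate (SLC34A1, also called NaPi-IIa) with sodium, SLC17A1 moves urate and organic anions, and AQP1 lets water follow. Factors of the HNF4 family are known regulators of this gene programme.

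The line had a partial set of brush border transcripts. FPKM, fragment counts scaled by transcript length and library depth, is the authors' unit and allows levels to be compared between genes. In order of the mean over all 6 libraries, GGT1 stood at 172 FPKM, DPP4 at 10.6, ENPEP at 10.5, ANPEP at 9.56, SLC5A2 at 2.16, AQP1 at 0.427 and CUBN at 0.30. SLC34A1 and SLC17A1 both stood at 0.017, and LRP2 was listed at 0 in 5 libraries and at 0.01 in control library B. GGT1 thus ranked 664th of the 31319 genes listed above 0, the other peptidases between ranks 6659 and 7015, and SLC5A2 11440th. The levels of GGT1 and SLC5A2 carry limits of read assignment that are given below. GGT1 alone made up 82.5% to 84.6% of the summed FPKM of the 10 genes in each library.

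**Figure D1:**
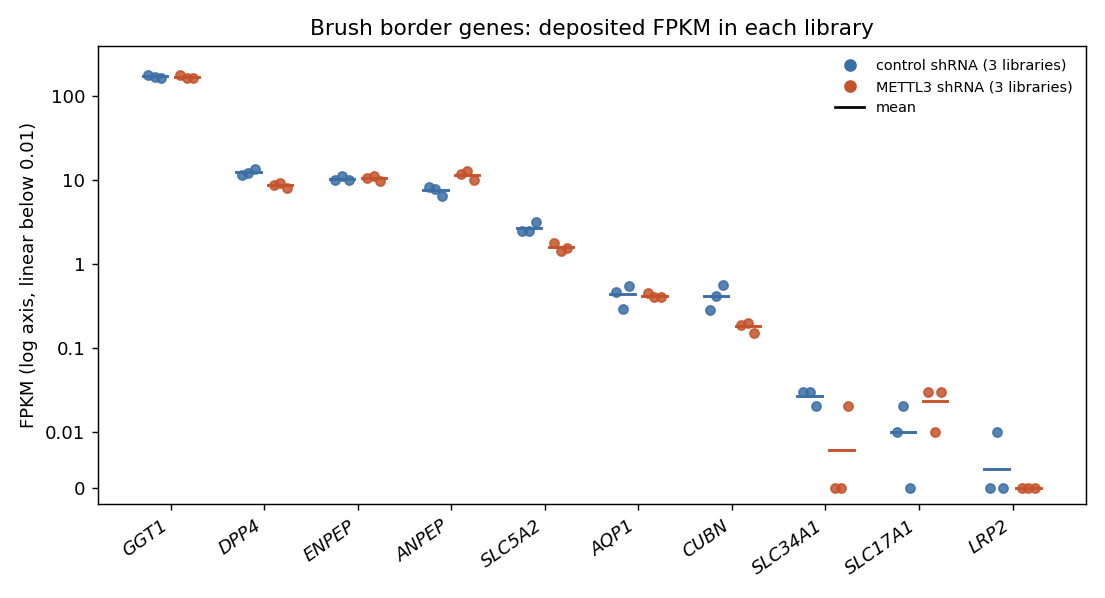
FPKM (log axis, linear below 0.01) of the 10 brush border genes in each of the 3 control shRNA (blue) and 3 METTL3 shRNA (orange) libraries, with lines at the group means. The peptidases GGT1, DPP4, ENPEP and ANPEP lie near or above 10, SLC5A2 near 2, and SLC34A1, SLC17A1 and LRP2 at or below 0.03.

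Neighbours in this order did not all differ beyond their spread. Among DPP4, ENPEP and ANPEP the order depended on the group: in all 3 control libraries DPP4 was the highest and ANPEP the lowest, and in all 3 METTL3 shRNA libraries ANPEP was the highest and DPP4 the lowest. AQP1 and CUBN overlapped in the control group, where CUBN was above AQP1 in 2 of 3 libraries, and AQP1 was above CUBN in all 3 METTL3 shRNA libraries. The steps from GGT1 to the other peptidases, from those to SLC5A2, and from SLC5A2 to AQP1 and CUBN held in all 6 libraries.

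The METTL3 shRNA libraries held 71.2% less METTL3 RNA than the controls (edgeR adjusted p = 1.45e-07). Between the groups, ANPEP was higher in the METTL3 shRNA libraries and DPP4, SLC5A2 and CUBN were lower, while GGT1, ENPEP and AQP1 did not pass the test. That is 1 gene higher and 3 lower of the 7 tested, where 33.5% of all 18740 genes tested passed in either direction (16.5% higher and 16.9% lower). The median log2 fold change of the 7 was 0.11, against −0.0030 over all genes tested. That median is the value of ENPEP, which did not pass. Fold changes compare CPM, counts scaled to library size and then adjusted by TMM, a factor that aligns the libraries on most genes, and p-values are from edgeR's quasi-likelihood test adjusted over all genes. The TMM factors were 1.00 to 1.07 in the control group and 0.94 to 0.988 in the METTL3 shRNA group. The groups did not overlap in CPM for 5 of the 7, against 47.4% of all genes tested (23.4% with the METTL3 shRNA group above, as for ANPEP and AQP1, and 23.9% with it below).

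**Figure D2:**
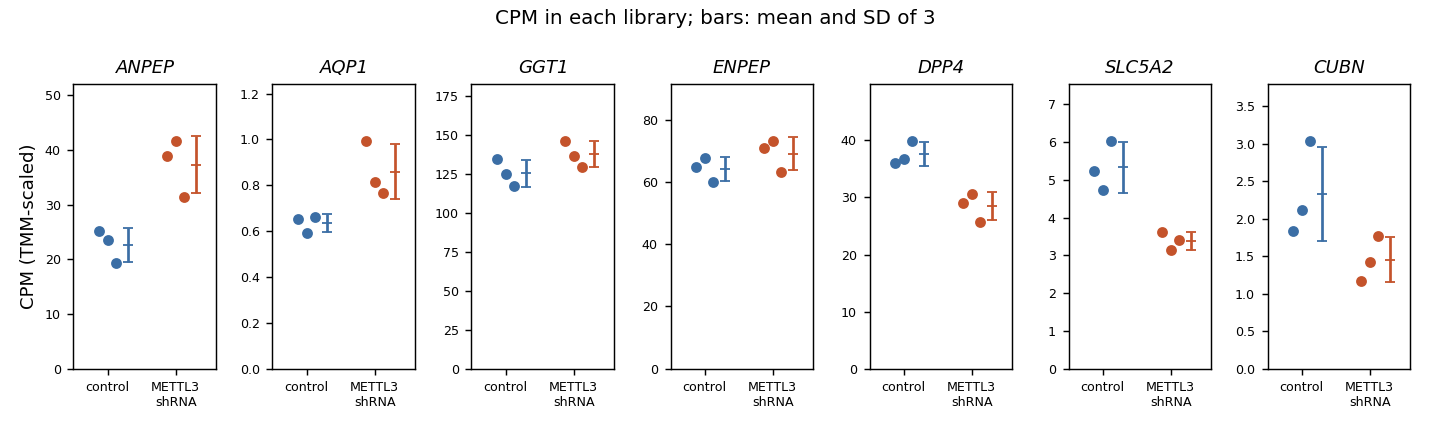
CPM (TMM-scaled, linear axes from 0) of the 7 tested brush border genes in each library, with the mean and SD of the 3 libraries of each group beside the points. The METTL3 shRNA points lie above all control points for ANPEP and AQP1, below them for DPP4, SLC5A2 and CUBN, and the groups overlap for GGT1 and ENPEP.

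ANPEP, which encodes aminopeptidase N (CD13), a zinc enzyme that removes neutral amino acids from the amino end of peptides, lies on the minus strand of chromosome 15 (89784889 to 89815401, GRCh38). Values of single libraries are given throughout in the order A, B, C. Its level was 25.2, 23.5 and 19.2 CPM in the control libraries and 38.8, 41.7 and 31.4 CPM in the METTL3 shRNA libraries. Every METTL3 shRNA library lay above every control library. The group levels were 22.7 ± 3.08 and 37.3 ± 5.29 CPM (SD, n = 3 each), and ANPEP rose by 64.7%, with a 95% interval of 38.6% to 95.7% (log2 fold change 0.72, SE 0.12, edgeR adjusted p = 0.000614). In FPKM the group means were 7.57 ± 0.949 and 11.5 ± 1.41 (SD, n = 3 each). No stretch of 100 bases of its annotated transcripts is shared with another gene.

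DPP4 encodes dipeptidyl peptidase 4 (CD26), a serine peptidase that removes dipeptides ending in proline or alanine and inactivates incretin hormones. It lies on the minus strand of chromosome 2 (161992241 to 162074542). DPP4 had 3748, 3923 and 4398 counts in the control libraries and 2744, 2975 and 2579 counts in the METTL3 shRNA libraries. The groups did not overlap, with mean levels of 37.6 ± 2.09 and 28.5 ± 2.49 CPM (SD, n = 3 each). DPP4 fell by 24.3% (95% interval −33.2% to −14.1%, log2 fold change −0.40, SE 0.08, edgeR adjusted p = 0.00311). In FPKM the ratio of ANPEP to DPP4 was 0.479 to 0.719 in the control libraries and 1.247 to 1.373 in the METTL3 shRNA libraries.

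ENPEP, on the plus strand of chromosome 4 (110365733 to 110565285), encodes glutamyl aminopeptidase (aminopeptidase A), which trims acidic residues and degrades angiotensin II. It belongs to the same family of zinc aminopeptidases as ANPEP. ENPEP stood at 64.7, 67.5 and 60.1 CPM in the control libraries and at 70.9, 73.2 and 63.1 CPM in the METTL3 shRNA libraries, so the groups overlapped. The difference of 7.76% had a 95% interval of −4.58% to 21.7% (log2 fold change 0.11, SE 0.08, edgeR adjusted p = 0.332). That interval lies wholly below the interval of ANPEP, although the difference between the 2 changes was not itself tested.

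GGT1 encodes gamma-glutamyltransferase 1, which opens the breakdown of extracellular glutathione by removing its glutamyl group, and lies on the plus strand of chromosome 22 (24583750 to 24629005). The control libraries held 134, 125 and 117 CPM and the METTL3 shRNA libraries 146, 137 and 130 CPM. The ranges overlapped, and the difference of 9.62% had a 95% interval of −2.86% to 23.7% (log2 fold change 0.13, SE 0.08, edgeR adjusted p = 0.226). In FPKM the group means were 173 ± 8.92 and 172 ± 9.07 (SD, n = 3 each). A change of ANPEP's size lies outside this interval.

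The level of GGT1 carries a limit on how its reads were assigned. Its counts and FPKM together imply a length of 741 to 782 bases, if FPKM was scaled to the library total. The annotated transcripts run from 535 to 2632 bases. Whether the deposited FPKM weights short forms of the gene was not tested. With a longer length the FPKM would be lower in proportion. Of the stretches of 100 bases in its transcripts, 16.2% occur in other genes, among them GGTLC2, GGT2 and GGT3P, and SNRPD3 shares 306 exonic bases on the same strand. The 9 gamma-glutamyltransferase copies and light-chain genes in the table together received 195 to 341 counts per library, or 1.47% to 2.64% of those of GGT1. SNRPD3, a small nuclear ribonucleoprotein gene, stood at 60.5 ± 4.27 and 56.2 ± 5.25 CPM (SD, n = 3 each), log2 fold change −0.11. GGT7, a distant member of the family, fell (log2 fold change −0.28, SE 0.07, edgeR adjusted p = 0.0123). These relatives and neighbours were named from their names and the annotation.

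The endocytic receptors were weakly expressed or near 0. CUBN, the peripheral receptor for intrinsic factor with vitamin B12 and for filtered proteins (chromosome 10, minus strand, 16823966 to 17129817), stood at 1.83, 2.12 and 3.04 CPM in the control libraries and at 1.17, 1.43 and 1.77 CPM in the METTL3 shRNA libraries. The groups did not overlap but came close, since control library A at 1.83 CPM lay next to METTL3 shRNA library C at 1.77 CPM. CUBN fell by 37.5% (95% interval −54.1% to −14.8%, log2 fold change −0.68, SE 0.21, edgeR adjusted p = 0.0232). Single libraries decided this call. Without control library C the log2 fold change was −0.44 (edgeR adjusted p = 0.103), and the call was also lost without METTL3 shRNA library A (0.0992) or B (0.0763).

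Counts and FPKM of CUBN did not move together within the METTL3 shRNA group. Library C of that group had the most counts of the 3, at 177 against 111 and 139, and the lowest FPKM, at 0.15 against 0.19 and 0.20. The transcript length implied by count and FPKM was 11629 bases in that library and 5254 to 6860 bases in the other 5. The longest annotated transcript has 11933 bases and the shortest 552. In FPKM the control libraries stood at 0.28, 0.42 and 0.56, above all 3 METTL3 shRNA libraries.

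**Figure D3:**
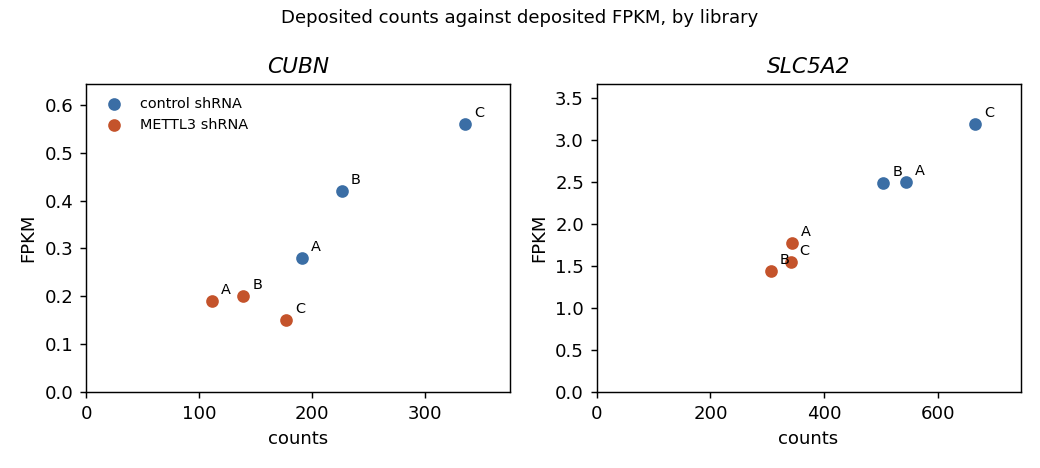
Deposited counts (x axis) against deposited FPKM (y axis) for CUBN and SLC5A2, with 1 point per library, letters naming the libraries of each group. For CUBN, METTL3 shRNA library C has the highest count of its group, 177, and the lowest FPKM, 0.15, while the SLC5A2 points lie near a line, with the control libraries at 504 counts or more.

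LRP2, the giant receptor that carries CUBN and its cargo into the cell, was close to undetected, with 1, 4 and 0 counts in the control libraries and 1, 0 and 2 in the METTL3 shRNA libraries. A count of 0 allows up to 3 counts, or 0.0273 to 0.0318 CPM in these libraries, for counting error only. At this depth no difference in LRP2 was detectable, and no fold change is given. LRP2 is a minus-strand gene of chromosome 2 (169127109 to 169362685) whose transcripts share no stretch of 100 bases with another gene.

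Of the solute transporters, SLC5A2 alone had enough counts to be tested. How much of its count came from overlapping neighbours, described below, was not tested. It encodes the sodium-glucose cotransporter that reclaims most filtered glucose and lies on the plus strand of chromosome 16 (31483002 to 31490860). SLC5A2 stood at 5.23, 4.73 and 6.04 CPM in the control libraries and at 3.63, 3.15 and 3.40 CPM in the METTL3 shRNA libraries. All METTL3 shRNA libraries lay below all control libraries. With group levels of 5.33 ± 0.663 and 3.39 ± 0.241 CPM (SD, n = 3 each), SLC5A2 fell by 36.3% (95% interval −47.2% to −23.2%, log2 fold change −0.65, SE 0.13, edgeR adjusted p = 0.00186).

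Part of the SLC5A2 gene is shared with a far more abundant neighbour. RUSF1 runs on the opposite strand and covers 31.1% of the exonic bases of SLC5A2, and the antisense RNA AC026471.3 covers 9.60%. RUSF1 stood at 207 ± 14.4 CPM in the control group and 227 ± 5.09 CPM in the METTL3 shRNA group (SD, n = 3 each), which differed by 0.14 on the log2 scale (SE 0.08, edgeR adjusted p = 0.206). RUSF1 stood at 204, 194 and 222 CPM in the control libraries and at 233, 223 and 226 CPM in the METTL3 shRNA libraries. Within each group the libraries had the same order in RUSF1 and SLC5A2, while the METTL3 shRNA libraries lay above the control libraries for RUSF1, a difference that did not pass, and below them for SLC5A2. The antisense RNA stood at 0.221 to 0.372 CPM in the control libraries and 0.0926 to 0.12 CPM in the METTL3 shRNA libraries. The sources used here do not say whether counting used strand, and the share of the SLC5A2 counts that came from either neighbour was not tested.

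The phosphate transporter SLC34A1 (chromosome 5, 177379235 to 177398848) had 7, 7 and 5 counts in the control group and 1, 1 and 5 in the METTL3 shRNA libraries. Control library C and METTL3 shRNA library C had the same count. An exact two-sided permutation test of CPM gave p = 0.2, where 3 libraries against 3 cannot go below 0.1. SLC17A1 (chromosome 6, 25782897 to 25832059) had 1, 3 and 0 counts in the control group and 3, 1 and 3 in the METTL3 shRNA libraries (exact two-sided permutation p = 0.2). Both genes were too weakly represented for a difference to be seen at totals of 100534896 to 103624456 counts per library.

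AQP1, the water channel of the proximal tubule and thin descending limb (chromosome 7, plus strand, 30911694 to 30925516), was low for a gene that is abundant in the tubule. It stood at 0.653, 0.591 and 0.663 CPM in the control libraries and at 0.995, 0.813 and 0.768 CPM in the METTL3 shRNA libraries. The METTL3 shRNA libraries were above the control libraries, yet the difference of 34.9% did not pass (log2 fold change 0.43, SE 0.20, edgeR adjusted p = 0.106). In FPKM the groups overlapped, at 0.29 to 0.54 in the control libraries and 0.40 to 0.45 in the METTL3 shRNA libraries, and the implied transcript length ran from 1317 to 2121 bases. A longer gene on the same strand (ENSG00000250424) shares 26.5% of the exonic bases of AQP1 and received 2 to 11 counts per library.

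The wider proximal tubule programme was read from 7 further lists of 103 genes in all. Of these, 61 were tested, 13 rose, 9 fell and 39 did not pass, a called share of 36.1% against 33.5% of all genes tested. Their median log2 fold change was 0.11. The counts of single lists below stand against 16.5% higher and 16.9% lower over all genes tested. They rest on 5 to 13 tested genes each, and no list was tested as a set. The 42 genes left out for low counts included many that define the tubule: the glucose transporter SLC5A1, the neutral amino acid transporter SLC6A19, the urate transporter SLC22A12, the basolateral organic anion transporters SLC22A6 and SLC22A8, the gluconeogenic enzymes PCK1 and G6PC1 and the meprin subunits MEP1A and MEP1B had at most 2 counts in any library.

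**Figure D4:**
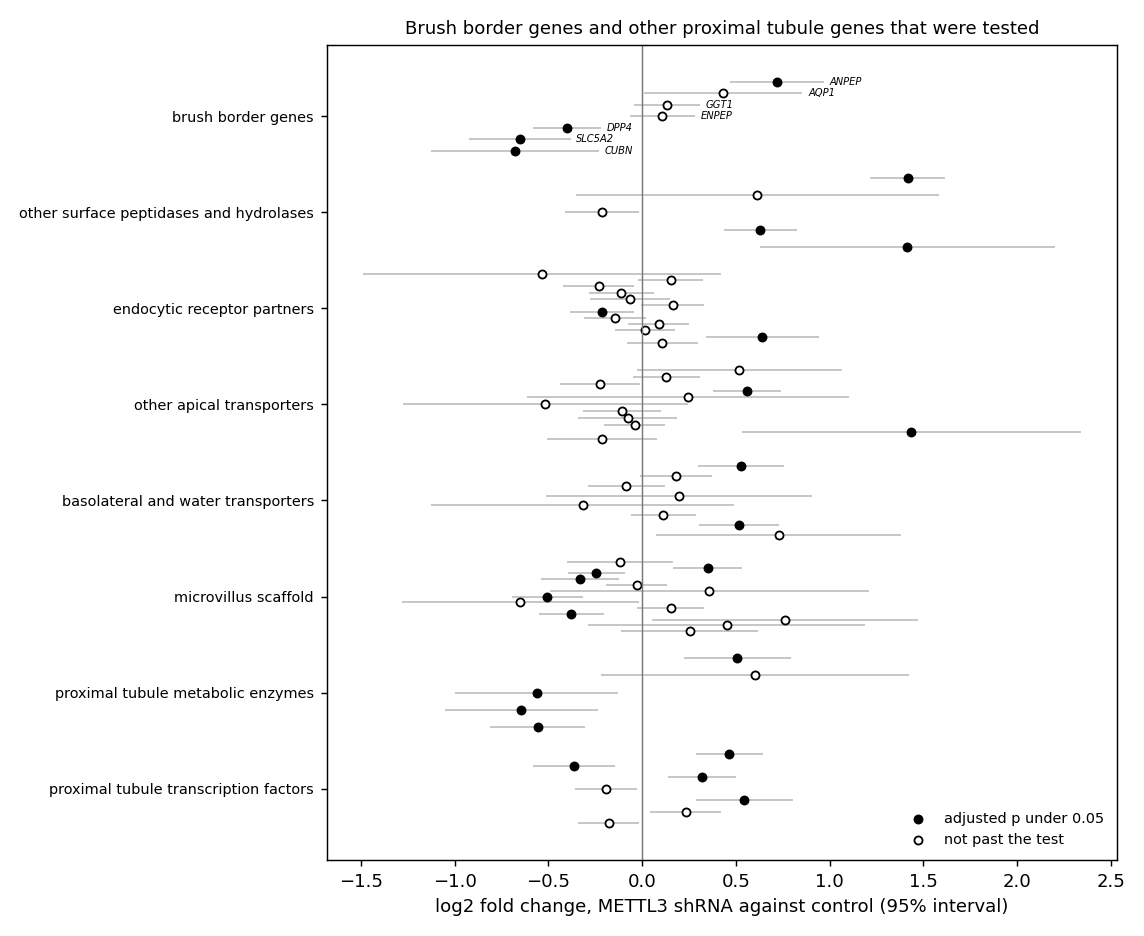
Log2 fold change (METTL3 shRNA against control) with 95% intervals of every tested gene, by list, with the brush border genes named in the top row. Filled points passed the edgeR test at an adjusted p of 0.05: 4 of 7 brush border genes, with ANPEP to the right and DPP4, SLC5A2 and CUBN to the left, and 22 of the 61 other genes.

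Among the other surface peptidases and hydrolases, 3 of 5 tested genes rose and 0 fell, with a median log2 fold change of 0.63. Over all genes tested, 16.5% rose and 16.9% fell, and 9 of the 14 listed here had too few counts to be tested. MME, which encodes neprilysin, a peptidase of natriuretic peptides and enkephalins, rose from 2.17 ± 0.131 to 4.87 ± 0.66 FPKM (SD, n = 3 each; log2 fold change 1.42, SE 0.09). NT5E, the 5′-nucleotidase CD73 that makes adenosine, rose by 0.63 (SE 0.09) on the log2 scale from 32.9 ± 1.30 FPKM. ALPL, tissue-nonspecific alkaline phosphatase, rose by 1.41 (SE 0.37), from 0.040 to 0.103 FPKM, and LNPEP did not pass (−0.22). The ALPL call rests on 7, 7 and 8 counts in the control libraries and 17, 16 and 21 in the METTL3 shRNA libraries. ACE reached no more than 8 counts, and FOLH1 and MEP1A had 0.

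All 12 listed partners of the endocytic receptors were tested, 1 rose, 1 fell and 10 did not pass (median −0.03). LRPAP1, the chaperone of LDL-receptor family proteins, stood at 124 ± 3.75 and 95.3 ± 5.97 FPKM (SD, n = 3 each). It did not pass (log2 fold change −0.23, edgeR adjusted p = 0.0585), and 9 of 17 alternatives called it lower. RAB11A, a GTPase of recycling endosomes, stood at 104 ± 7.43 and 98.7 ± 2.74 FPKM (SD, n = 3 each). In TMM-scaled counts RAB11A had the other sign and did not pass (log2 fold change 0.09, edgeR adjusted p = 0.395). FCGRT, the neonatal Fc receptor that salvages albumin and IgG, rose (0.64, SE 0.14). GIPC1, an adaptor that binds the tail of LRP2, fell (−0.21, SE 0.08) with an edgeR adjusted p of 0.0496, and 8 of 17 alternatives lost that call, among them each left-out library except METTL3 shRNA library A. AMN, the membrane anchor of CUBN, was low, at 6 to 19 counts per library, and stood at 0.070 and 0.043 FPKM.

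Of 11 tested apical transporters, 2 rose, 0 fell and 9 did not pass (median −0.04). SLC9A3, the sodium-proton exchanger NHE3 of the brush border, rose from 3.08 ± 0.186 to 4.21 ± 0.167 FPKM (SD, n = 3 each; log2 fold change 0.56, SE 0.08). SLC17A3, a neighbour in family of SLC17A1, rose by 1.44 (SE 0.42) on the log2 scale, from 0.0933 to 0.223 FPKM, and lost its call without control library C or METTL3 shRNA library A or B (edgeR adjusted p = 0.0727 to 0.0844). The phosphate transporters of wide tissue range, SLC20A1 and SLC20A2, stood at 24.8 and 7.47 FPKM in the control group and did not pass (0.13 and −0.23), next to a listed 0.0267 FPKM for SLC34A1. The carnitine and organic cation carriers SLC22A4 (12.7 FPKM in the control group) and SLC22A5 (11.9 FPKM) did not pass (−0.08 and −0.04), although SLC22A4 passed as lower without METTL3 shRNA library C (−0.27, edgeR adjusted p = 0.0292).

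Among basolateral transporters and other water channels, listed together, 2 of 8 tested genes rose and 0 fell (median 0.19). AQP11, an intracellular water channel among the 8, did not pass (log2 fold change 0.73, edgeR adjusted p = 0.0806). The sodium pump subunit ATP1B1 rose from 125 ± 10.4 to 164 ± 9.82 FPKM (SD, n = 3 each; log2 fold change 0.52, SE 0.10). The bicarbonate cotransporter SLC4A4 rose (0.53, SE 0.11) and the amino acid transporter subunit SLC3A2 did not pass (−0.09) at 485 FPKM in the control group. The amino acid transporter subunit SLC7A7 stood at 7.96 and 8.39 FPKM (0.18).

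The microvillus scaffold had 13 tested genes, of which 1 rose, 4 fell and 8 did not pass (median −0.03). PLS1, the actin bundler fimbrin of microvilli, fell by 0.51 (SE 0.09) on the log2 scale, from 15.4 ± 2.23 to 10.2 ± 0.754 FPKM (SD, n = 3 each). The motor MYO6 fell (−0.38, SE 0.08), as did the PDZ scaffolds NHERF1 (−0.24, SE 0.07) and NHERF2 (−0.33, SE 0.10), listed under their older symbols in the tables. Leaving out control library A, control library C or METTL3 shRNA library B ended the NHERF1 call (edgeR adjusted p = 0.0599 to 0.0795). PDZK1IP1, a small membrane protein that binds PDZK1, rose by 0.35 (SE 0.08) from 486 ± 7.79 FPKM, and ezrin (EZR) did not pass (−0.03) at 27.7 FPKM in the control group. Villin (VIL1) of this list was low, at 36 to 153 counts per library and mean levels of 0.14 and 0.16 FPKM. It did not pass (log2 fold change 0.36, edgeR adjusted p = 0.517).

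Of 5 tested metabolic enzymes of the proximal tubule, 3 fell and 1 rose (median −0.56), against 33.5% of all genes called in either direction. Another 9 of the 14 listed were not tested. CYP27B1, which makes active vitamin D, fell by 0.56 (SE 0.12), MIOX, which breaks down inositol, fell by 0.64 (SE 0.19), and GATM, the first enzyme of creatine synthesis, fell by 0.56 (SE 0.20). The mitochondrial carboxykinase PCK2 rose (0.51, SE 0.13). GATM had an edgeR adjusted p of 0.0463, and its call was lost without control library B or C or METTL3 shRNA library A or B (0.0717 to 0.175). The MIOX call was lost without control library A or B or METTL3 shRNA library B (0.0527 to 0.092), and that of PCK2 without METTL3 shRNA library B (0.0515).

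Among the transcription factors of the lineage, 3 of 7 tested rose, 1 fell and 3 did not pass (median 0.23). Over all genes tested, 33.5% were called in either direction. PAX8 rose (0.32, SE 0.08) and MAF rose (0.55, SE 0.12), while HNF4G fell (−0.37, SE 0.10). The PAX8 call was lost with library size scaling (log2 fold change 0.21, edgeR adjusted p = 0.0674) and without control library B (0.0563) or C (0.0521), and the HNF4G call without control library B (0.0769) or METTL3 shRNA library A (0.0616). HNF4A had 0 to 3 counts per library.

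Genes whose profile over the 6 libraries lay nearest to that of a brush border gene were sought among the tested genes of these lists, by the root mean square difference of log2 CPM after centring each gene. Nearest to ANPEP were NT5E (0.105) and MAF (0.113), nearest to DPP4 were MYO6 (0.0751) and NHERF2 (0.107), and nearest to SLC5A2 were PLS1 (0.141) and ESPN (0.164). CUBN lay nearest to GATM (0.149) and ESPN (0.162). For AQP1 they were PDZK1IP1 (0.102) and FCGRT (0.125). SLC7A7 was among the 2 nearest genes of both ENPEP (0.0434) and GGT1 (0.0614). Genes that differ between the groups lie near each other in this measure for that reason alone.

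Markers of other nephron segments and cell types were low, with exceptions named after their values were seen. UMOD of the thick limb, SLC12A3 and PVALB of the distal tubule, AQP2 and SCNN1B of the principal cell and FOXI1 and ATP6V1B1 of the intercalated cell had at most 3 counts per library. SLC26A4, an intercalated cell marker, had 71 to 173 counts and did not pass (log2 fold change −0.54). AQP3, a principal cell marker, fell (log2 fold change −1.88), at 36 to 55 counts in the control and 9 to 13 in the METTL3 shRNA libraries. Of 4 podocyte markers PODXL rose (0.55) and SYNPO, at 174971 to 221280 counts per library, did not pass. The 4 endothelial markers summed to 0.0865 to 0.136 CPM in the control and 0.0898 to 0.116 CPM in the METTL3 shRNA libraries, and the leukocyte markers CD3E and MS4A1 had 0 counts, while CD14 fell (log2 fold change −1.41) at 5 to 30 counts per library, with all 4 leukocyte markers summing to 0.115 to 0.281 and 0.0898 to 0.0953 CPM. Of 4 fibroblast markers, LUM and PDGFRB fell, DCN and PDGFRA had at most 3 counts, and the sum was 2.36 to 2.67 CPM in the control and 0.854 to 1.28 CPM in the METTL3 shRNA libraries. Of 6 markers of injured proximal tubule, HAVCR1 (log2 fold change 0.39) and VIM (1.02) rose and 4 did not pass. Their sum was 1286 to 1725 CPM in the control and 2340 to 3411 CPM in the METTL3 shRNA libraries, nearly all of it VIM, at 1198 to 1648 and 2262 to 3330 CPM. VCAM1 (−0.23), SOX9 (−0.14) and PROM1 (−0.14) had values below 0 and CD24 one above it (0.08). The part of any of these markers in the changes of the brush border genes was not tested. In RNA from a whole culture, fewer cells of a kind and less RNA per cell cannot be told apart.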

How the data were processed

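Whole-number counts and FPKM values per gene were deposited by the authors for 6 libraries, with STAR 2.7.10b, Salmon and GRCh38 named in the submitters' processing notes but with no role stated. The sources used here give neither annotation release nor strand setting. The FPKM values deposited by the authors were used for levels between genes. The 3 columns named for a control shRNA formed the control group, and the 3 columns that carry a construct number were taken as the METTL3 shRNA group by elimination. No label links the column letters to replicate numbers.

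The counts, deposited raw, were tested with edgeR 4.0.16 (R 4.3.3): filterByExpr left 18740 genes, TMM scaling, the quasi-likelihood test and Benjamini-Hochberg adjustment at 0.05. Standard errors and 95% intervals came from the F statistic. Totals were 100534896 to 103624456 counts per library. Within groups, library pairs exceeded counting noise (chi-square over its degrees of freedom 16.4 to 62.2). On simulated counts for 18740 genes with 200 changed, all at a dispersion of 0.01, 5.84% of the calls were unchanged genes. That setting differs from these data, where 33.5% of genes were called, so it does not give the error rate of the calls here. Gene positions and exons came from GENCODE 29 on GRCh38, which held 58308 of 61860 identifiers. Implied transcript length is the count divided by FPKM and by the library total. It takes that total as the one used for FPKM and was not checked against single transcript forms. Stretches of 100 bases were compared between GENCODE transcripts on both strands.

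The genes of interest and the lists were chosen with earlier results of these data known. In each list the up to 4 genes with the smallest p and the up to 3 with the highest FPKM were named, as were all brush border genes, METTL3 and the 2 nearest profiles. Genes of the lists were also named for low counts, and others after their values were seen. Profiles used log2(CPM + 0.01). Alternatives were DESeq2-type and library size scaling, DESeq2 1.42.0, limma-voom (limma 3.58.1), other filters, limma on log2(FPKM + 1) and log2(FPKM + 0.1), a block by letter, each library left out, and, added after the data were seen, leaving out mitochondrial transcripts. Some genes of the lists are counted but not reported here by name.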

Additional observations from a re-analysis of the deposited data

How the results depend on the processing

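ANPEP, DPP4 and SLC5A2 kept their direction and their call under all 17 alternatives run, and CUBN kept its direction under the 15 that gave it a value and its call under 11. Where CUBN passed the filter, the losses besides the left-out libraries were with limma on log2(FPKM + 1) without a filter (log2 fold change −0.26, adjusted p = 0.0759). The number of brush border genes higher was 1 throughout. The number lower was 2 to 3 with a library left out and 2 in the 3 fits on FPKM, where CUBN was filtered out or did not pass. Genes that did not pass moved around 0: ENPEP was −0.0038 with library size scaling, GGT1 was −0.0089 in the 3 fits on FPKM, AQP1 was −0.0096 with limma on log2(FPKM + 1) without a filter, RAB11A was −0.024 with library size scaling and −0.076 or −0.077 on FPKM, and SLC20A1 was −0.0099 or −0.011 on FPKM. With a library left out, EZR ran from −0.057 to 0.021 (0.0018 without METTL3 shRNA library C), SLC22A4 from −0.27 to 0.036 and SLC22A5 from −0.072 to 0.0021. With library size scaling the tested genes as a whole also lay lower, at a median of −0.113 against −0.0030 with TMM. On FPKM that median was −0.094 for log2(FPKM + 1), −0.115 for log2(FPKM + 0.1) and −0.0095 for log2(FPKM + 1) without a filter. With a library left out it ran from −0.0050 to 0.0033. The cause of these moves was not tested.

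Library size scaling moved the median of all genes to −0.11 and the split to 1985 higher and 4727 lower. The number of genes higher was 1588 with limma on log2(FPKM + 1), 1568 on log2(FPKM + 0.1) and 1027 without a filter. With a library left out it was 2053 to 3265 higher and 1959 to 3324 lower, the lowest without METTL3 shRNA library B. Of the other proximal tubule genes, 7 were higher with limma on log2(FPKM + 1) without a filter, and 15 were lower with library size scaling. With a library left out, 11 to 16 of them were higher and 4 to 9 lower, with 5 without control library B or C and 4 without METTL3 shRNA library B. The replicate block by column letter gave 3421 genes higher and 3564 lower, with 1 brush border gene higher and 3 lower. Deviations of same-letter libraries correlated at −0.018, −0.049 and 0.17, and those of different-letter pairs at −0.122 to 0.144. With 3 libraries per group, these values cannot decide whether a letter marks libraries handled together.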
